A study of Mus musculus with 6 samples.

Results

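Matrix metalloproteinases and their tissue inhibitors were followed in corneal epithelial cells of mice in which *Ptch1* deletion was directed at the mesenchymal cells beneath the epithelium. The 9 genes were chosen by name from the 17784 genes listed in the expression table. They were the metalloproteinase genes *Mmp3*, *Mmp9*, *Mmp10*, *Mmp13*, *Mmp14* and *Mmp15* and the inhibitor genes *Timp1*, *Timp2* and *Timp3*. Bulk RNA-seq compared 3 KO samples, from *Prrx1-creERT;Ptch1* mice, with 3 WT samples, from mice that the paper calls controls. For the RNA-seq, the paper does not spell out the genotype of the controls. For both groups the labels give an age of 10 weeks, 3 doses of tamoxifen (TAM) and 2 months of treatment. They do not say whether the age is that at induction or at collection. Both groups had the corneal epithelium separated with EDTA. *Prrx1-CreERT* is a tamoxifen-inducible Cre that the study places in keratocytes and also in corneal endothelial cells, so the epithelial cells were not its intended target. The sources used here do not say how many corneas or animals went into each sample. If samples of a group were not from separate animals, p values measure only the spread between these samples.

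Matrix metalloproteinases are zinc enzymes made as inactive precursors, and together they can cut most proteins of the extracellular matrix. Mmp3 and Mmp10 are stromelysins, Mmp13 is a collagenase, Mmp9 is a gelatinase that cuts basement membrane collagen, and Mmp14 and Mmp15 are anchored in the cell membrane. Timp proteins bind the active enzymes and block them, and in the cornea both families are known for their part in basement membrane turnover and epithelial wound repair.

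The expected counts, RSEM's estimates of reads per gene, summed to between 20296741 and 20625813 per sample, and 3 counts in a sample equalled 0.145 to 0.148 CPM (counts scaled to a fixed library size). Of the listed genes, 12999 passed the filter on low counts and were tested. A gene was called when its adjusted p was at most 0.05 and its fold change at least 2, and 420 genes were called, with 304 higher and 116 lower in KO samples. *Ptch1* itself had 517, 659 and 682 normalized counts in WT replicates 1, 2 and 3 and 390, 445 and 471 in the KO replicates. Its log2 fold change was -0.51 (SE 0.13, adjusted p = 0.0401, edgeR quasi-likelihood test), below the fold required for a call, and these epithelial libraries do not check deletion in the targeted cells. *Krt12*, the keratin that defines corneal epithelium, reached 37107 to 49487 TPM (a transcript level scaled for gene length and depth) in all 6 samples. *Kera*, a defining keratocyte gene, stayed at or below 0.07 TPM.

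The promoters of *Mmp13* and *Mmp10*, the members with the largest differences, and of *Mmp3*, which lies between them, are shown first, beside that of *Mmp14*, the most abundant member. Each line gives RefSeq sequence of build GRCm38.p6 on the plus strand, 5′ to 3′, from 120 bases before the annotated start through its first 30 bases. The stretches are chr9:7272394-7272543 (*Mmp13*), chr9:7445702-7445851 (*Mmp3*), chr9:7502222-7502371 (*Mmp10*) and chr14:54431478-54431627 (*Mmp14*). Capitals mark the AP-1 motif TGAGTCA on either strand and the TATA box letters TATAAA on the gene's strand.
Mmp13: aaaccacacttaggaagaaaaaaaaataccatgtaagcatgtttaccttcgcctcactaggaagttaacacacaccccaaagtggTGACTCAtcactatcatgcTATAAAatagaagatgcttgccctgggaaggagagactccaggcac
Mmp3: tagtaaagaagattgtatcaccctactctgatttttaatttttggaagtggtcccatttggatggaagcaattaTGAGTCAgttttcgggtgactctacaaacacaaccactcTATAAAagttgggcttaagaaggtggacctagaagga
Mmp10: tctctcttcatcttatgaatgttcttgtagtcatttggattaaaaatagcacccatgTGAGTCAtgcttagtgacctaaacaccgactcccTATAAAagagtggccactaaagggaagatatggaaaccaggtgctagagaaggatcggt
Mmp14: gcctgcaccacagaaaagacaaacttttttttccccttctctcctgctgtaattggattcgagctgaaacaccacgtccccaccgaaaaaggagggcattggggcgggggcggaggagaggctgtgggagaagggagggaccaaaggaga

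RefSeq windows from 250 bases before to 50 bases after the start were matched for 8 of the 9 members, and none was matched for *Mmp9*. The AP-1 letters, recognised by Fos and Jun proteins, began 35 bases before the start of *Mmp13*, 46 before that of *Mmp3* and 63 before that of *Mmp10*. They were not found in the windows of *Mmp14*, *Mmp15*, *Timp1*, *Timp2* or *Timp3*. Of all 32851 windows, 5.2% held the AP-1 letters on either strand. The TATA box letters followed the same division among the 8 members, at 16, 7 and 29 bases before the start of *Mmp13*, *Mmp3* and *Mmp10*, and 8.32% of all windows held them on the gene's strand. The GC content of the windows was 37.7 to 43.7% for these 3 genes and 55 to 68.7% for the other 5. The ETS motif letters AGGAAG, also searched on either strand, did not divide the members this way. They were found in the windows of *Mmp13*, *Mmp3*, *Mmp14*, *Timp1* and *Timp3*, and not in those of *Mmp10*, *Mmp15* and *Timp2*. Of all windows, 35.4% held the ETS letters. A letter match describes the sequence and does not show that a protein binds there.

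The largest differences among the members were those of the secreted enzymes *Mmp13* and *Mmp10*, whose fitted fold changes were 24.1 and 10.8, higher in KO than in WT samples. The membrane-anchored *Mmp14* was 36.0% higher in the same fit, and *Mmp15* and *Timp3* differed by less than the spread between samples. None of the inhibitor genes was called by edgeR's quasi-likelihood test, whereas DESeq2 called *Timp1*. The call was reached by 2 members, both higher in KO, against 2.34% of all tested genes called higher, and by 0 members lower, against 0.892% of all tested genes (3.23% in either direction). The filter passed 7 members, and *Mmp10*, *Mmp13* and *Timp1* passed it through the KO samples, since only 1, 0 and 1 of their WT samples reached its level of 10 counts at median depth. The other 2 members, *Mmp3* and *Mmp9*, did not pass in either group.

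**Figure D1:**
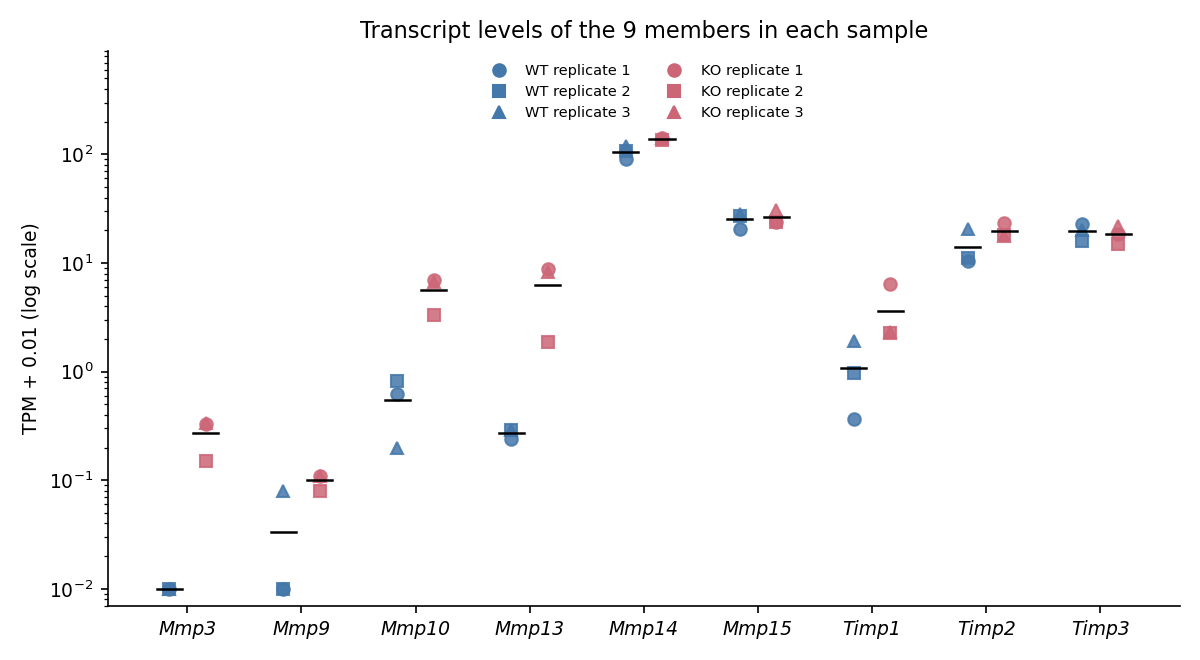
TPM plus 0.01 on a log axis for each of the 9 members, with 1 symbol per sample, WT in blue and KO in red, and black lines at the group means. The KO samples lie above every WT sample for *Mmp10*, *Mmp13*, *Mmp14* and *Timp1*, and the groups overlap for *Mmp15*, *Timp2* and *Timp3*.

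*Mmp13* (gene 17386), the interstitial collagenase of rodents, had 5.96, 6.88 and 6.79 normalized counts in WT replicates 1, 2 and 3 and 237, 47.2 and 199 in KO replicates 1, 2 and 3. Normalized counts are counts put on a common library size, so they can be read beside the raw counts. Every KO sample lay above every WT sample, as for 19.7% of all tested genes. KO replicate 2 was several times lower than the other KO samples. The log2 fold change was 4.59 (SE 0.67, 95% interval 3.04 to 6.15, adjusted p = 0.0110, edgeR quasi-likelihood test). Its TPM was 0.263 ± 0.029 (SD, n = 3) in WT and 6.30 ± 3.87 (SD, n = 3) in KO samples.

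*Mmp10* (gene 17384), the stromelysin that epithelial cells make at wound edges, had 9.94, 12.8 and 2.91 normalized counts in the WT samples and 121, 54.4 and 104 in the KO samples. The groups did not overlap, WT replicate 3 was the lowest of all, and KO replicate 2 was again the lowest KO sample. The log2 fold change was 3.43 (SE 0.49, 95% interval 2.29 to 4.57, adjusted p = 0.0107, edgeR quasi-likelihood test). On the TPM scale the level was 0.537 ± 0.316 (SD, n = 3) in WT and 5.65 ± 2.04 (SD, n = 3) in KO samples. The calls of *Mmp10* and *Mmp13* were both lost without WT replicate 2, at log2 fold changes of 3.83 and 4.63 and adjusted p values of 0.0538 and 0.0672, in a fit that called 59 genes in all. The difference of each gene was in the same direction and at least 3.02 on the log2 scale in each fit that left out 1 sample.

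*Mmp3* (gene 17392), the other stromelysin here, had an expected count of 0 in all 3 WT samples and 5.48, 2.28 and 5.38 in the KO samples. Its KO values were not whole. Added to the expected counts of *Mmp10*, they came to whole numbers, 122, 55 and 109, in the KO samples. The GENCODE transcripts of *Mmp3* and *Mmp10* share an identical run of 104 bases, whereas the other pairs among *Mmp13*, *Mmp12*, *Mmp1b*, *Mmp3* and *Mmp10* share at most 18. The split of reads between *Mmp3* and *Mmp10* is therefore uncertain, and no fold change is given for *Mmp3*. As RSEM split the reads, *Mmp10* held nearly all of the summed expected counts of both genes in every sample.

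*Mmp9* (gene 17395), the gelatinase best known from wounded and inflamed cornea, had 0, 0 and 2 counts in the WT samples and 3, 2 and 3 in the KO samples. The KO to WT ratio of the summed counts, 8 against 2, was 4.01 with an exact 95% counting interval of 0.800 to 38.8. A difference was not detectable at this depth. *Mmp9* was at most 0.10 TPM in each sample.

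*Mmp14* (gene 17387), the membrane-bound collagenase that also activates other metalloproteinases, was the most abundant member in every sample. It had 3288, 3774 and 4097 normalized counts in the WT samples and 5367, 4886 and 4919 in the KO samples. All KO samples exceeded all WT samples, and the WT samples were spread more widely than the KO samples. The log2 fold change was 0.44 (SE 0.09, 95% interval 0.23 to 0.66, adjusted p = 0.0253, edgeR quasi-likelihood test). It passed the adjusted p without the required fold. With no minimum fold, 3 members passed, all higher in KO, against 14% of all tested genes in either direction and 7.61% higher in KO. Its TPM was 105 ± 14.4 (SD, n = 3) in WT and 139 ± 3.95 (SD, n = 3) in KO samples. Leaving out 1 sample gave log2 fold changes from 0.36 to 0.52 and adjusted p values from 0.0364 to 0.0998.

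*Mmp15* (gene 17388), the other membrane-anchored enzyme, had 861, 1084 and 1118 normalized counts in the WT samples and 1044, 992 and 1227 in the KO samples. The groups overlapped, with WT replicate 1 the lowest and KO replicate 3 the highest. Its log2 fold change was 0.09 (SE 0.12, 95% interval -0.20 to 0.38, adjusted p = 0.645, edgeR quasi-likelihood test). The interval of *Mmp15* lies below the fold of 2 used for a call, and that of *Mmp14* does too. The difference between the fold changes of these enzymes was not tested.

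**Figure D2:**
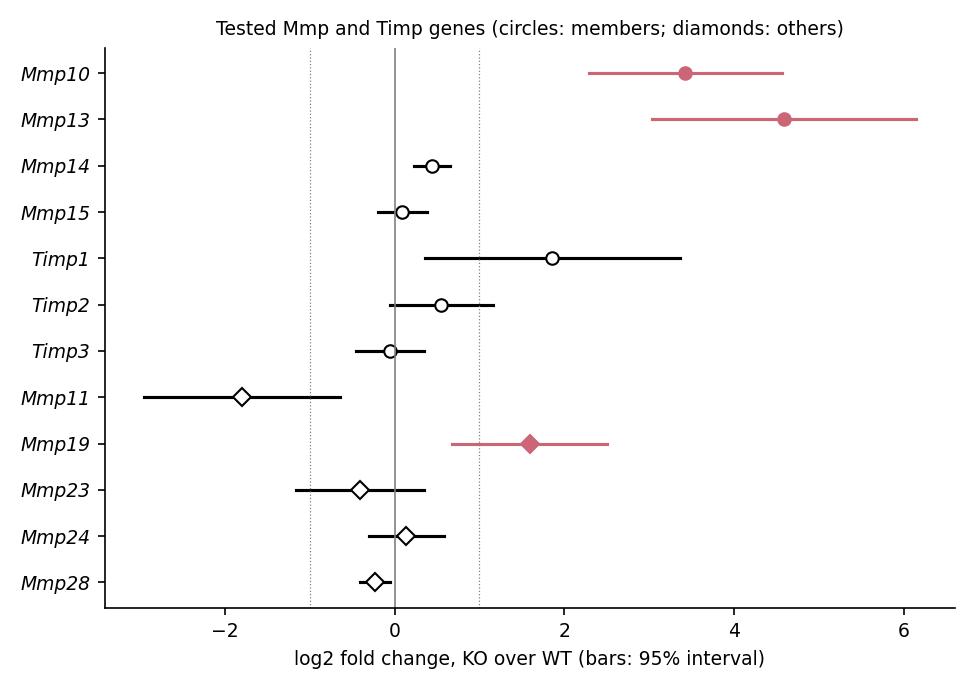
Log2 fold change of KO over WT with its 95% interval for the 7 tested members (circles) and the 5 other tested Mmp genes (diamonds), with called genes filled in red and dotted lines at a fold change of 2. *Mmp13* and *Mmp10* have the largest values, 4.59 and 3.43, and the intervals of *Mmp15*, *Timp2*, *Timp3*, *Mmp23* and *Mmp24* cross 0.

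*Timp1* (gene 21857), an inhibitor that binds most secreted metalloproteinases, had 2.98, 6.88 and 14.6 normalized counts in the WT samples and 53.8, 18.5 and 17.9 in the KO samples. The KO samples were all above the WT samples, but KO replicates 2 and 3 lay close to WT replicate 3. The log2 fold change was 1.86 (SE 0.64, 95% interval 0.36 to 3.36, adjusted p = 0.0907, edgeR quasi-likelihood test), and the gene was not called. DESeq2 gave 1.88 with an adjusted p of 0.0468, which passed. Over fits that left out 1 sample the log2 fold change ran from 1.15, without KO replicate 1, to 2.57, without WT replicate 3, and the adjusted p from 0.0849 to 0.246.

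KO replicate 1 also stood apart in a list of neutrophil genes. The summed TPM of 9 listed neutrophil genes was 19.5 to 34.7 in WT samples and 525, 28.0 and 43.2 in KO replicates 1, 2 and 3. In KO replicate 1 most of this was *S100a9*, with 373 TPM, *S100a8*, with 78.8, and *Ltf*, with 64.0, genes that epithelial cells can also make. *Mpo*, *Camp* and *Ngp*, which define neutrophil granules, were at most 0.37 TPM in every sample, and *Mmp8*, the neutrophil collagenase, had 1 count over all 6 samples. Other genes of the list were present in all 6 samples. *Ly6g* had 6.74, 6.18 and 6.64 TPM in WT and 5.49, 2.76 and 6.23 in KO samples. *Cxcr2* was at 1.75 to 2.70 TPM and *Csf3r* at 0.73 to 1.31 over both groups. Of the 4 neutrophil genes tested, 0 were called. *S100a8* and *S100a9* did not pass the filter and were not tested. *Krt4* and *Krt19*, keratins of the conjunctiva, were highest in KO replicates 1 and 3, like *Mmp13* and *Mmp10*. *Krt4* had 105, 152 and 223 TPM in the WT samples and 898, 170 and 528 in the KO samples, and *Krt19* had 85.6, 133 and 209 in WT and 587, 162 and 350 in KO. The whole conjunctival list, 5 of 6 genes measured and 0 called, summed to 12624 to 13177 TPM in WT samples and 11492 to 13936 in KO samples. Most of that sum was *Gsta4*, and the 4 keratins without it summed to 1408, 1871 and 2351 TPM in WT and 4745, 2202 and 2937 in KO samples, with KO replicate 2 below WT replicate 3. The part of other cell types in the values of *Mmp10*, *Mmp13* and *Timp1* was not tested, and in bulk RNA fewer cells of a type and less RNA per cell cannot be told apart.

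*Timp2* (gene 21858), the inhibitor that also forms a complex with Mmp14 on the cell surface, had 362, 368 and 678 normalized counts in the WT samples and 840, 633 and 589 in the KO samples. WT replicate 3 lay above KO replicates 2 and 3, so the groups overlapped. KO over WT, the log2 fold change was 0.55 (SE 0.26, 95% interval -0.05 to 1.15, adjusted p = 0.182, edgeR quasi-likelihood test). Without WT replicate 3 it was 0.91 with an adjusted p of 0.0364, still short of the required fold.

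WT replicate 3 also had the highest summed level of most stromal marker genes. Without *Fbln1*, the 12 other stromal genes measured summed to 12.7, 10.6 and 65.5 TPM in WT replicates 1, 2 and 3 and to 12.5, 13.6 and 8.34 in the KO samples. *Vim*, the mesenchymal intermediate filament gene, had 2.23, 1.71 and 20.8 TPM in WT and 2.79, 2.64 and 0.96 in KO samples. *Mmp2*, a gelatinase typical of fibroblasts and not among the 9 members, had 8, 1 and 40 counts in WT and 1, 4 and 2 in KO samples, so its summed counts rested on WT replicate 3. *Fbln1* behaved otherwise, with 57.8, 66.4 and 60.5 TPM in WT and 126, 110 and 114 in KO samples. It supplied most of the list's total in every sample but WT replicate 3, and was left out of the sum after its level was seen. With it, the 13 measured genes of 14 in the list summed to 70.5, 77.0 and 126 TPM in WT and 139, 124 and 122 in KO samples. The part of stromal RNA in the *Timp2* values was not tested.

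**Figure D3:**
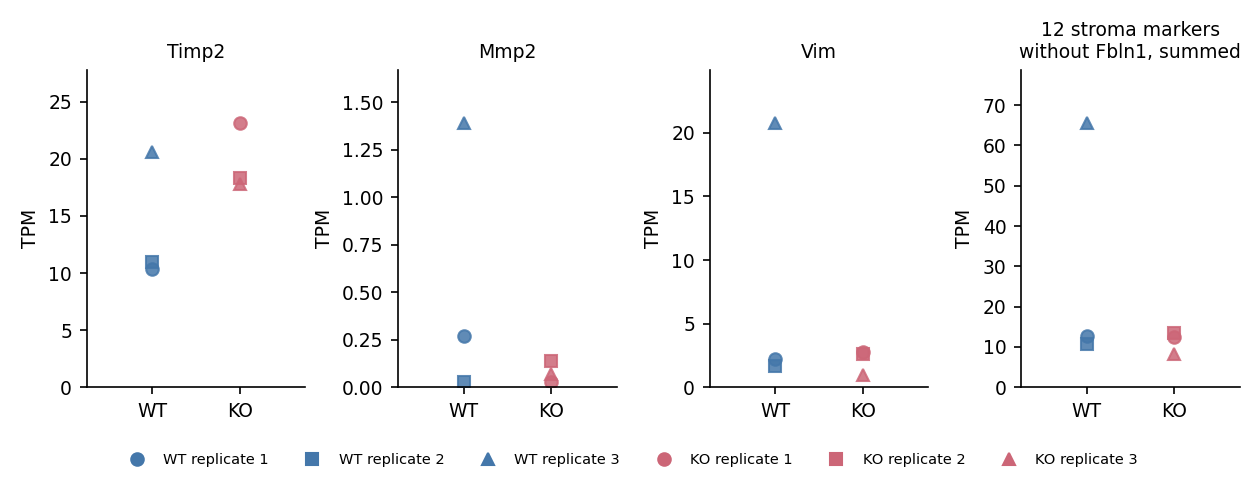
TPM of *Timp2*, *Mmp2* and *Vim* and the summed TPM of 12 stromal marker genes in each WT (blue) and KO (red) sample, each panel on its own linear axis from 0. WT replicate 3 is the highest sample for *Mmp2*, *Vim* and the marker sum, at 65.5 TPM for the sum, and the highest WT sample for *Timp2*.

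*Timp3* (gene 21859), the inhibitor that binds to the matrix, had 1040, 690 and 850 normalized counts in the WT samples and 868, 677 and 939 in the KO samples. WT replicate 1 was the highest and KO replicate 2 the lowest, and the other values lay between them in both groups. The log2 fold change was -0.05 (SE 0.17, 95% interval -0.46 to 0.35, adjusted p = 0.854, edgeR quasi-likelihood test).

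Levels of different genes were compared on the TPM scale. In WT samples the order of mean levels was *Mmp14* at 105, *Mmp15* at 25.4, *Timp3* at 19.6, *Timp2* at 14.0, *Timp1* at 1.07, *Mmp10* at 0.537, *Mmp13* at 0.263, *Mmp9* at 0.0233 and *Mmp3* at 0. The sample ranges of *Mmp15* and *Timp3*, of *Timp3* and *Timp2*, of *Timp1* and *Mmp10*, and of *Mmp10* and *Mmp13* overlapped. In KO samples *Mmp14* was at 139, *Mmp15* at 26.3, *Timp2* at 19.7, *Timp3* at 18.5, *Mmp13* at 6.30, *Mmp10* at 5.65 and *Timp1* at 3.64. *Mmp13* and *Mmp10* thus stood above *Timp1* in mean level in KO samples and below it in WT samples. Within KO samples the ranges of *Mmp13*, *Mmp10* and *Timp1* overlapped.

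The 6 Mmp members summed to 111, 136 and 147 TPM in the WT samples and 181, 164 and 188 in the KO samples, without overlap. Most of the sum was *Mmp14*, which made up 79.2 to 80.7% in WT and 75.4 to 82.1% in KO samples. The 4 secreted enzymes *Mmp3*, *Mmp9*, *Mmp10* and *Mmp13* supplied 0.754, 0.803 and 0.366% of it in WT and 9.01, 3.28 and 8.11% in KO samples. In TPM their sum was 0.84, 1.09 and 0.54 in WT and 16.3, 5.37 and 15.2 in KO samples. The share of *Mmp15* was at least 18.6% in each WT sample and at most 16.5% in each KO sample.

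The 3 Timp members summed to 33.8, 27.9 and 42.4 TPM in WT and 47.9, 35.6 and 42.0 in KO samples, and the groups overlapped. The ratio of the Mmp sum to the Timp sum was 3.30, 4.87 and 3.48 in WT and 3.78, 4.59 and 4.47 in KO samples, so the KO values lay inside the WT range. *Timp1* made up 1.07 to 4.46% of the Timp sum in WT and 5.50 to 13.3% in KO samples. The ratio of *Mmp14* to *Timp2*, 2 partners in 1 complex, was 5.75 to 9.77 in WT and 6.08 to 7.95 in KO samples and overlapped as well. These sums and ratios are of RNA and were not tested.

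**Figure D4:**
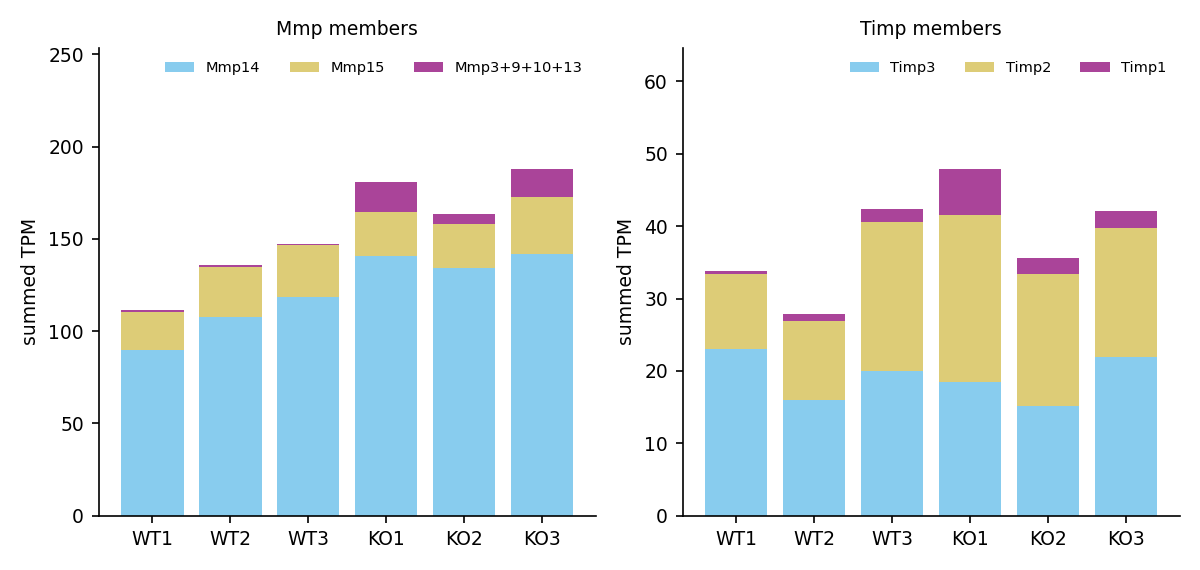
Stacked bars of summed TPM in each of the 6 samples, with the Mmp members on the left and the Timp members on the right, from 0. *Mmp14* fills most of each Mmp bar, the secreted enzymes reach 5.37 to 16.3 TPM in KO samples, and the Timp bars overlap between groups.

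*Mmp13*, *Mmp3* and *Mmp10* lie in the metalloproteinase cluster of chromosome 9, whose gene order in RefSeq runs *Mmp13*, *Mmp12*, *Mmp1b*, *Mmp3*, *Mmp1a*, *Mmp10*, *Mmp8*, *Mmp27*, *Mmp20* and *Mmp7*, with 0 other protein-coding genes between them. Of these 10 genes, 9 were in the table, and *Mmp1a* was not used here. All KO samples were above all WT samples in raw counts for 5 of the 9, *Mmp13*, *Mmp12*, *Mmp1b*, *Mmp3* and *Mmp10*, against 13% of all 17784 listed genes counted the same way, with no filter. Only 2 of those 5 passed the filter, and *Mmp3* carries the uncertainty given above.

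*Mmp12*, the macrophage elastase, had 2, 4 and 1 counts in WT and 27, 8 and 19 in KO samples. Its ratio of summed counts was 7.73 (exact 95% counting interval 3.51 to 20.1), and when genes with at least 1 count were tested it was called at a log2 fold change of 2.92 (adjusted p = 0.0327, edgeR quasi-likelihood test). With 1 sample left out it passed the usual filter in 4 fits, and was called without KO replicate 2 (adjusted p = 0.0264) but not without WT replicate 1, 2 or 3 (adjusted p = 0.0844, 0.0881 and 0.0799). *Mmp1b*, a collagenase-like gene with a close copy in *Mmp1a*, had 0 counts in each WT sample and 4, 1 and 6 in the KO samples. With the WT group set to a floor of 3 counts, its ratio of summed counts was 3.68, a value that leaves out counting error. When genes with at least 1 count were tested, *Mmp1b* was not called (log2 fold change 4.94, adjusted p = 0.0903, edgeR quasi-likelihood test). *Mmp3* was not called in that fit either (adjusted p = 0.0623). Among macrophage and leukocyte markers, *Ptprc* was at most 0.20 TPM, *Csf1r* at most 0.28 and *Lyz2* at most 0.32 in every sample, and 0 of the 3 tested genes among the 10 in the list were called. That list summed to 120 to 155 TPM in WT and 198, 151 and 169 in KO samples, nearly all of it from *Itgam* and *Cd68*. *Itgam*, an integrin chain of myeloid cells, had 67.0, 86.0 and 101 TPM in WT and 129, 99.5 and 113 in KO samples, and *Cd68*, a lysosomal marker of macrophages, had 46.0, 45.3 and 50.1 in WT and 65.5, 48.8 and 51.3 in KO samples. The normalized counts of both were higher in every KO than in every WT sample, as for 19.7% of all tested genes. In TPM and in raw counts the groups overlapped for both. The log2 fold changes were 0.48 (adjusted p = 0.0759) and 0.27 (adjusted p = 0.213, edgeR quasi-likelihood test for both). The part of these cells in the *Mmp12* values was not tested.

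KO replicate 2 had the lowest raw count of the KO samples for each of *Mmp13*, *Mmp12*, *Mmp1b*, *Mmp3* and *Mmp10*. It was thus the KO sample nearest to the WT level for these 5 genes. Outside the cluster, KO replicate 2 also had the lowest raw KO count for *Mmp9*, *Mmp14*, *Mmp15* and *Timp3*. It tied with KO replicate 3 for *Timp1* and was not lowest for *Timp2*. The share of all genes with KO replicate 2 lowest was not counted. *Mmp8*, *Mmp27*, *Mmp20* and *Mmp7* had at most 10 counts in any sample, and their groups overlapped.

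**Figure D5:**
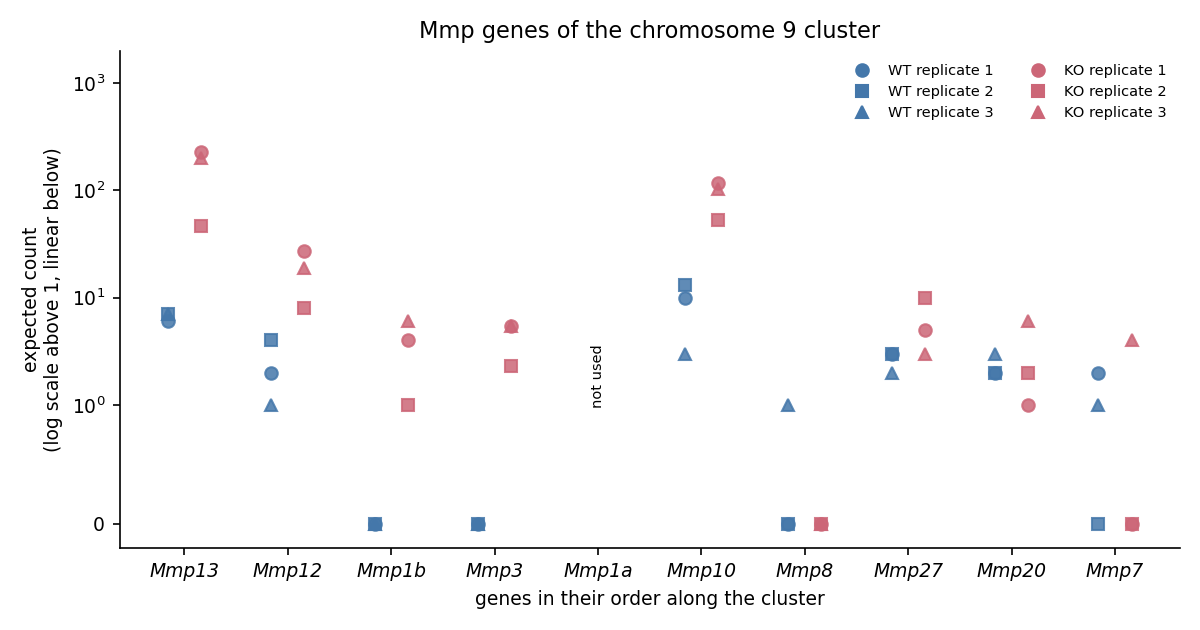
Expected counts of the chromosome 9 Mmp genes in their order along the cluster, on an axis that is linear below 1 and logarithmic above, with WT in blue and KO in red. KO samples lie above WT samples for *Mmp13*, *Mmp12*, *Mmp1b*, *Mmp3* and *Mmp10*, where KO replicate 2 (square) is the lowest KO sample, and overlap with them for the 4 other genes plotted.

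The remaining metalloproteinases and inhibitors were described from a list of 18 other Mmp and Timp genes, of which 15 were in the table, 5 were tested, 1 was called higher and 0 were called lower (2.34% and 0.892% of all tested genes). The called gene was *Mmp19*, a secreted enzyme of basement membrane and matrix, with 11.9, 10.8 and 11.6 normalized counts in WT and 51.7, 32.8 and 19.9 in KO samples. Its log2 fold change was 1.59 (SE 0.39, adjusted p = 0.0390, edgeR quasi-likelihood test), and the call was lost in 5 of the 6 fits that left out 1 sample, with adjusted p values from 0.0267 to 0.141 and log2 fold changes from 1.19 to 1.87. *Mmp11*, a stromal metalloproteinase, pointed the other way with 12.9, 9.83 and 24.3 in WT and 6.20, 3.08 and 3.98 in KO samples. It was not called (log2 fold change -1.80, adjusted p = 0.0519, edgeR quasi-likelihood test). *Mmp11* passed the filter through the WT samples, with 6, 3 and 4 raw counts in KO samples, and WT replicate 3 was the highest. *Mmp28*, an enzyme of epithelia, was the most abundant of these genes, with 45.4 TPM in WT and 37.6 in KO samples on average. All KO samples of *Mmp28* lay below all WT samples, as for 20.3% of all tested genes, at a log2 fold change of -0.23 (adjusted p = 0.0767). *Mmp23* and *Mmp24* had log2 fold changes of -0.41 and 0.14 with adjusted p values of 0.408 and 0.649.

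Genes that activate or regulate metalloproteinases were counted in a list of 25, of which 24 were in the table and 19 were tested. Of these, 5 were called higher and 0 lower (2.34% and 0.892% of all tested genes), and the median log2 fold change was 0.31, against -0.01 over all tested genes. *Plat*, which encodes tissue plasminogen activator, had 478, 410 and 443 normalized counts in WT and 1008, 898 and 904 in KO samples, a narrow spread in both groups (log2 fold change 1.08, adjusted p = 0.0032). *Plau*, which encodes urokinase, had 282, 192 and 313 in WT and 1332, 393 and 810 in KO samples, with KO replicate 2 the lowest KO sample as for the cluster genes (log2 fold change 1.69, adjusted p = 0.0380). Both enzymes turn plasminogen into plasmin, which cuts metalloproteinase precursors. Also called were the kallikrein *Klk7*, at 4.02, and the thrombospondin *Thbs2*, a matrix protein known to bind and clear Mmp2, at 2.94 (adjusted p values 0.0153 and 0.0112). *Klk7* had 5, 2 and 2 raw counts in WT and 88, 32 and 26 in KO samples. Like *Mmp13*, it passed the filter through the KO samples alone. In the 6 fits that left out 1 sample, *Plat* kept its call in all, *Thbs2* lost it without WT replicate 2 and *Klk7* without WT replicate 2 or 3. *Plau* kept its call only without KO replicate 2.

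Several regulators with a direct role toward the members did not pass. *Reck*, a membrane inhibitor of metalloproteinases, was at 0.0467 TPM in WT and 0.11 in KO samples and was not tested. *Bsg*, the inducer known as CD147 or EMMPRIN, had a log2 fold change of -0.01 (adjusted p = 0.927), and *Lcn2*, whose protein binds Mmp9, one of -0.01 (adjusted p = 0.997). *Cd63*, whose protein is a surface partner of Timp1, had 25.8, 19.7 and 107 normalized counts in WT and 88.9, 43.1 and 44.8 in KO samples, with WT replicate 3 the highest, and a log2 fold change of 0.21 (adjusted p = 0.847). *Furin*, the convertase that removes the inhibitory part of Mmp14, had 1596, 1596 and 1556 in WT and 2391, 2282 and 2390 in KO samples. Its log2 fold change of 0.57 (adjusted p = 0.0045) passed the adjusted p and not the fold, like that of *Mmp14*. The convertase *Pcsk6*, in the same list, went the other way, with 566, 823 and 578 in WT and 406, 465 and 352 in KO samples. Its log2 fold change of -0.68 (adjusted p = 0.0391, edgeR quasi-likelihood test) also passed the adjusted p and not the fold. For the convertase *Pcsk5* the log2 fold change was -0.17 (adjusted p = 0.741, same test).

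The related Adam and Adamts proteinases, some of which Timp3 inhibits, were listed with 27 genes, all in the table. Of the 10 tested, 1 was called higher and 0 lower (2.34% and 0.892% of all tested genes), with a median log2 fold change of 0.09. *Adam8* had 28.8, 37.4 and 28.1 normalized counts in WT and 261, 77.0 and 107 in KO samples (log2 fold change 2.23, adjusted p = 0.0256), and the call was lost without any 1 of the WT samples. *Adam17*, the main sheddase of growth factor precursors, had a log2 fold change of -0.01 (adjusted p = 0.931).

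Substrates of the members were taken as 24 basement membrane and matrix genes, all in the table, of which 22 were tested. Among them 2 were called higher and 0 lower (2.34% and 0.892% of all tested genes), and the median log2 fold change was 0.26. *Col4a4*, a basement membrane collagen chain, was called at low counts, with 9.94, 2.95 and 7.77 in WT and 17.6, 19.5 and 25.9 in KO samples. Its log2 fold change was 1.59 (adjusted p = 0.0484, edgeR quasi-likelihood test). Like *Klk7*, it passed the filter through the KO samples alone, with expected counts of 9.81, 3.02 and 7.99 in WT. The call was lost in all 6 fits that left out 1 sample.

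Factors known to induce metalloproteinase transcription, many of them AP-1 subunits, were counted in a list of 19 genes, all tested. Called higher were 5 and lower 0 (2.34% and 0.892% of all tested genes), and the median log2 fold change was 0.65, against -0.01 over all tested genes. *Jun*, an AP-1 subunit, had 1741, 1827 and 1767 normalized counts in WT and 13440, 9411 and 6608 in KO samples (log2 fold change 2.47, adjusted p = 0.0044). *Fos*, its partner, had 2307, 2822 and 2438 in WT and 4100, 8189 and 5881 in KO samples (log2 fold change 1.26, adjusted p = 0.0180). *Fosb*, at 2.57, *Egr1*, an immediate early factor, at 1.52, and *Ets1*, at 1.16, completed the called genes, with adjusted p values of 0.0105, 0.0186 and 0.0430. *Jun* kept its call in all 6 fits that left out 1 sample and *Ets1* in 0, whereas *Fos* lost it without WT replicate 1, 2 or 3 or KO replicate 2, *Fosb* without WT replicate 2 and *Egr1* without WT replicate 1. The order among KO samples varied between these factors. KO replicate 2 was the highest KO sample for *Fos* and lay in the middle for *Jun*. For *Fosb* it was the lowest, at 1966 normalized counts against 1998 and 3479 in KO replicates 1 and 3. *Fosl1*, another AP-1 subunit, had 56.6, 0.983 and 3.88 in WT and 788, 53.4 and 377 in KO samples, the same order of KO samples as *Mmp13* and *Mmp10*. Its groups overlapped and it was not called (log2 fold change 4.31, adjusted p = 0.0512, edgeR quasi-likelihood test). *Mmp14*, *Plau* and *Adam8* also had the order of KO samples seen for *Fosl1*. A link between these factors and the members was not tested.

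The 3 genes most alike to each called member were found by Pearson's r of log2 CPM over the 6 samples, among the 10323 tested genes whose normalized count averaged 100 or more. For *Mmp13* they were *St3gal1* (r = 0.996), *Nedd4l* (r = 0.996) and *Hspa4l* (r = 0.994), and for *Mmp10* they were *H1f2* (r = 0.994), *Ppp1r12c* (r = 0.990) and *Ltbr* (r = 0.990). The 6 points share the difference between the groups, so the values describe these samples and carry no test.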

How the data were processed

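RNA-seq of corneal epithelial cells was measured in 3 WT and 3 KO samples, grouped by the labels. The authors' deposited table gives expected counts (RSEM estimates, not scaled for depth) and TPM values per gene. The submitters' processing notes name Bowtie2 2.2.5, RSEM 1.2.12 and build mm9. The labels name an Illumina TruSeq kit, whereas the study's methods describe rRNA depletion and another platform, and the conflict was not settled. FPKM values were not used, and columns of other samples numbered 0. Expected counts were rounded, since 39.4% of the values above 0 were not whole.

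Genes that passed filterByExpr were tested with edgeR 4.0.16 in R 4.3.3 (TMM, quasi-likelihood test), with Benjamini-Hochberg adjustment over the 12999 tested genes. An exact permutation of 3 against 3 samples cannot reach a p of 0.05, so single genes were not permuted. TPM values were summed or compared as deposited. Pairs of samples within a group differed by more than counting noise (chi-square per degree of freedom 10.1 to 37.8). The depth of 20296741 to 20625813 counts per sample sets the floor of 3 counts, and intervals on summed counts cover counting error only. Promoters were searched in RefSeq windows of build GRCm38.p6, and gene order was read from the same assembly. The procedure was tested on simulated data.

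The members and lists were chosen with earlier results of these data known. All members were named, as were other Mmp and Timp genes by value when called, at most 6 called genes of each related list by smallest p, regulators with a direct role, and 3 alike genes for each called member. *Mmp2*, *Mmp8*, *Mmp11*, *Mmp12*, *Mmp1b*, *Mmp28*, *Furin*, *Pcsk5*, *Pcsk6*, *Fosl1* and the marker genes were named after their values were seen. Alternatives were DESeq2 1.42.0, RLE factors, other count filters, no minimum fold, a replicate block, limma 3.58.1 on log2-transformed TPM (pseudocounts 1 and 0.1, genes averaging 1 TPM or more), and each sample left out. Mmp1a, Mmp17 and Timp4 were not analysed here, and some genes that meet the naming rule are not reported here.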

Additional observations from a re-analysis of the deposited data

How the results depend on the processing

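The 2 members called, *Mmp10* and *Mmp13*, were also called with DESeq2, RLE factors, genes of at least 1 count, no minimum fold, the block and both TPM fits. With at least 10 counts required in every sample 0 members were called, since *Mmp10*, *Mmp13* and *Timp1* were then not tested. Leaving out 1 sample gave 0 to 2, with 0 only without WT replicate 2, and log2 fold changes of 3.02 to 3.83 for *Mmp10* and 4.21 to 5.03 for *Mmp13*. With no minimum fold *Mmp14* passed at 0.44, and with DESeq2 *Timp1* passed at 1.88. The sign turned for *Mmp15* without WT replicate 1 (-0.020) or KO replicate 3 (-0.0042), within -0.020 to 0.16, and for *Timp3* without WT replicate 1 (0.10) or KO replicate 2 (0.07), within -0.19 to 0.10.

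All called genes numbered 420 (304 higher, 116 lower), 234 (165 and 69) on log2 TPM with a pseudocount of 1, 1822 (989 and 833) with no minimum fold, and 59 to 430 (45 to 298 and 14 to 132) with 1 sample left out. Without WT replicate 1, WT replicate 2, WT replicate 3 and KO replicate 1 they numbered 250, 59, 254 and 273. The other Mmp and Timp genes called numbered 1, but 2 with genes of at least 1 count, 0 in both TPM fits and 0 to 1 with 1 sample left out. *Mmp19* averaged below 1 TPM and was not tested in the TPM fits.

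The related lists were put through the same alternatives after the data were seen. Regulators called were 5, or 9 with no minimum fold and 1 to 5 with 1 sample left out. Adam and Adamts genes were 1, or 2 with DESeq2, 2 with no minimum fold and 0 to 2. Substrates were 2, or 4 with DESeq2, 7 with no minimum fold, 1 with genes of at least 1 count, 1 with the replicate block, 1 in each TPM fit and 1 to 4. *Col4a4* averaged below 1 TPM and was not tested in the TPM fits. Inducing factors were 5, or 11 with no minimum fold and 2 to 4. The lowest of each of these ranges was reached without WT replicate 2, also by other samples for 3 of the 4 lists. Beyond the filters and the smaller number of samples, the cause was not tested.

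No clear pairing of the samples by replicate number was seen, although correlations over 3 samples a group cannot exclude it. Deviations of same-numbered samples correlated at 0.105, -0.0137 and 0.0189, and not every sample correlated best with its own number. The replicate block gave 390 called genes (278 higher, 112 lower), with *Mmp10* at 3.40 and *Mmp13* at 4.45 on the log2 scale, and changed no call of a member. Depth limits *Mmp3* and *Mmp9*, whose counts were below the filter.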
